A study of Mus musculus with 2 samples.

Results

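Ly6a, Ly6d and Ly6g6c are 3 of the 13373 genes in a table of single cells from Apc mutant mouse intestinal organoids, and they were taken by name as members of the Ly6 family of surface proteins. They were selected on their levels in these cells as known from earlier results, so their values and differences between the libraries are descriptions. The series holds 1 library of organoids treated with DBZ, a gamma-secretase inhibitor that blocks Notch signalling, and 1 library treated with its vehicle, DMSO. Both are labelled strain C57Bl and age 3 to 4 months. The treatment text of both samples lists 300 nM 4-OH-tam (4-hydroxytamoxifen) and 10 uM DBZ, and the sample titles were followed for which one is the vehicle. The Apc allele, any Cre driver and the number of animals or organoid lines were not stated in the labels. The DBZ library held 1241 cells and the DMSO library 968, with medians of 10901 and 11183 UMIs (unique molecular identifiers, counts of captured RNA molecules) per cell, and 3 cell barcodes occurred in both. With 1 library per treatment there is no replicate check, no p-value was computed, and every interval covers counting error only.

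Ly6 proteins are small surface proteins built on the looped fold of snake toxins and of the urokinase receptor uPAR, held together by disulfide bonds between cysteines. Most are attached to the outer membrane by a glycosylphosphatidylinositol (GPI) lipid anchor. Ly6a is Sca-1, a marker of blood stem cells that interferon induces and that also marks injured and fetal-like intestinal epithelium. Ly6d is known from B cell precursors and squamous epithelia. Ly6g6c is a less studied member encoded in the major histocompatibility complex region.

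The coding sequences show how far apart the members are, which bears on whether short reads can be assigned to each. In GENCODE vM21 on GRCm38 (mm10), Ly6a (ENSMUSG00000075602) lies on the minus strand of chr15:74994877-74998031. Ly6d (ENSMUSG00000034634) lies on the minus strand of chr15:74762056-74763620. Ly6g6c (ENSMUSG00000092586) lies on the plus strand of chr17:35065388-35070050. Each chosen transcript has 3 exons. The stretches shown code for the disulfide-bonded part of each protein and run 5′ to 3′ from the first cysteine codon of a C-x-x-C pattern to an asparagine codon. They cover codons 29 to 105 of Ly6a, 23 to 93 of Ly6d, 23 to 99 of Ly6g6c and 29 to 102 of Ly6c1, counted from the start codon. Capitals mark the in-frame cysteine codons TGT and TGC. Ly6c1, the next gene to Ly6a in the table, is shown because it is a close relative that the files also list.
Ly6a: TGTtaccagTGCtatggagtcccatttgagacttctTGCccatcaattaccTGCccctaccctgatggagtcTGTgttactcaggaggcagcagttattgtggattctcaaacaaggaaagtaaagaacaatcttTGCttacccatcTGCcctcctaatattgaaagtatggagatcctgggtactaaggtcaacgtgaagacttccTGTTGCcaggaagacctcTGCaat
Ly6d: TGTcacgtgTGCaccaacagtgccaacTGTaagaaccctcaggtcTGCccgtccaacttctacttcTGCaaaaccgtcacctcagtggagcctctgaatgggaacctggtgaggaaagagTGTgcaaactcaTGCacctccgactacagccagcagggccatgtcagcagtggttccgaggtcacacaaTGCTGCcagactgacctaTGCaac
Ly6g6c: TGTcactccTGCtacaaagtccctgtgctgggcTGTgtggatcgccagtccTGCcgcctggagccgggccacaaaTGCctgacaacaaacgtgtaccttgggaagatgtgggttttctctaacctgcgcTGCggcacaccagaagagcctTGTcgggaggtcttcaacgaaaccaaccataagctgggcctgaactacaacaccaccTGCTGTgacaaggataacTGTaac
Ly6c1: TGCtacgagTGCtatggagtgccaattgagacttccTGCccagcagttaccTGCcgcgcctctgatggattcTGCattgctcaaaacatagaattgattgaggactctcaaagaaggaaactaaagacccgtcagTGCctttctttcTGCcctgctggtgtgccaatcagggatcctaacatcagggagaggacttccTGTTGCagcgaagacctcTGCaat
Each stretch holds 10 cysteine codons, and each ends with a pair of adjacent ones followed by 1 more just before the asparagine codon. Outside the capitals the members differ at many bases. The full coding sequences are 405 bases for Ly6a, 384 for Ly6d and 381 for Ly6g6c. Over aligned bases of these Ly6a was identical to Ly6d at 68.5% and to Ly6g6c at 62.6%, and Ly6d to Ly6g6c at 63.8%. Ly6a and Ly6c1 were identical at 83.8% of aligned bases. Of the 410 windows of 91 bases, the read length, in the last 500 bases of each transcript, 0 were shared with another gene's transcripts for each member. For Ly6c1, 34 of the 410 windows were also in Ly6c2. Ly6g6c overlaps Mpig6b on the opposite strand, and Mpig6b was not analysed here.

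Ly6d and Ly6g6c were higher in the DBZ library and Ly6a was lower. Levels are given per 10000 UMIs of a cell and averaged over all cells of a library. They are not compared between genes, because UMIs were counted from transcript ends. Ly6d averaged 1.41 in DBZ and 0.177 in DMSO, from 2441 and 258 UMIs. Its log2 difference, with 0.05 added to each mean, was 2.68, and the ratio of pooled UMIs was 2.94 on the log2 scale (95% interval 2.75 to 3.13). Ly6g6c averaged 0.301 in DBZ and 0.0489 in DMSO, a log2 difference of 1.83. Its pooled ratio, which adds no constant to these low means, was larger at 2.96 (2.57 to 3.39). Ly6a averaged 0.181 in DBZ and 0.404 in DMSO, a log2 difference of -0.98 and a pooled ratio of -1.37 (-1.54 to -1.21). Over the 12303 genes above 0 in both libraries and seen in at least 1% of cells of either, 1.76% were at least 2-fold higher in DBZ and 1.07% at least 2-fold lower. Ly6d and Ly6g6c were past that fold and Ly6a was just inside it. The median log2 difference of these genes was 0.09, and 62.9% were higher in DBZ.

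The share of cells with at least 1 UMI followed the same order. In the DBZ library 267 of 1241 cells had Ly6d (21.5%, exact 95% interval 19.3 to 23.9), while 51 of 968 had it in the DMSO library (5.27%, 3.95 to 6.87). For Ly6g6c these numbers were 121 (9.75%, 8.16 to 11.5) and 36 (3.72%, 2.62 to 5.11). For Ly6a they were 74 (5.96%, 4.71 to 7.43) and 109 (11.3%, 9.34 to 13.4). None of the 3 pairs of intervals overlapped, but the share of all genes for which this holds is not given here. As the members were selected on their levels, the count is a description. After each cell was thinned to 5000 UMIs, the shares in DBZ and DMSO were 13.6% and 3.41% for Ly6d, 5.80% and 1.55% for Ly6g6c, and 3.38% and 5.58% for Ly6a. Thinning left out 0 cells and kept the order of the libraries for each member.

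**Figure D1:**
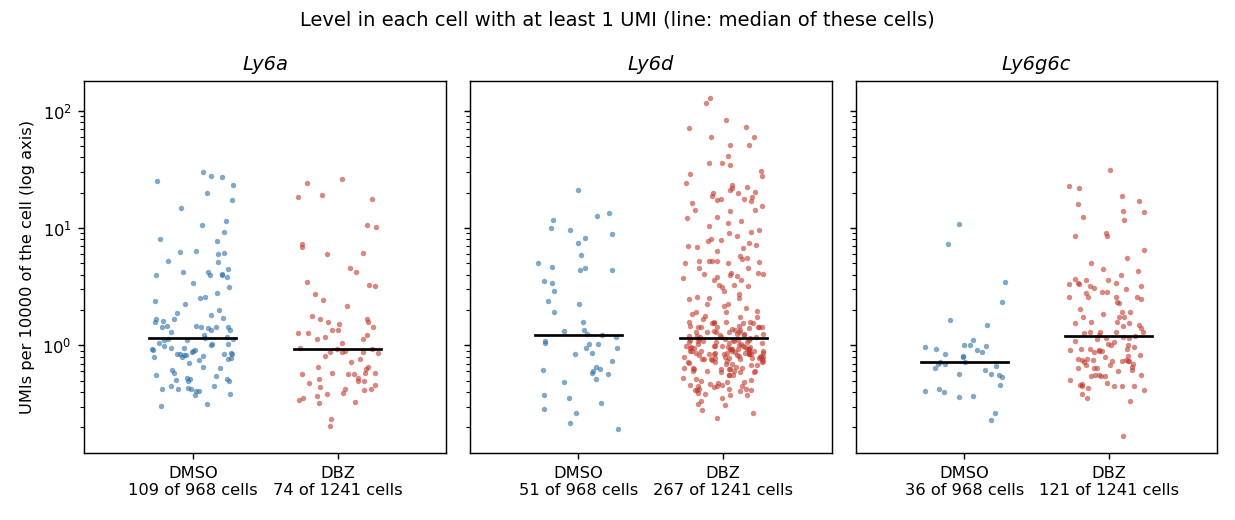
Level of each member in every cell with at least 1 UMI, per 10000 UMIs of the cell on a log axis, by library, with points jittered sideways and a line at the median of the plotted cells. Most cells sit near the level of 1 UMI, and an upper tail reaches 128.6 for Ly6d in DBZ.

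Few cells carried most of each member's UMIs, except for Ly6g6c in DMSO. In 43 of the 74 DBZ cells with Ly6a and 47 of the 109 DMSO cells, Ly6a was a single UMI. The cells with 5 or more Ly6a UMIs numbered 16 in DBZ and 33 in DMSO, and they held 80.3% and 86.7% of its UMIs. The highest cells had 57 Ly6a UMIs in DBZ and 99 in DMSO. Of the cells with Ly6d, 145 of 267 in DBZ and 24 of 51 in DMSO had a single UMI, against 73 and 17 cells with 5 or more, which held 88.7% and 79.5% of its UMIs. Its highest cells had 194 UMIs in DBZ and 30 in DMSO. Ly6g6c had 24 such high cells in DBZ with 69.3% of its UMIs, and 2 in DMSO with 26.8%, and its highest cells had 52 and 8 UMIs. In DMSO, 28 of the 36 Ly6g6c cells had 1 UMI. The positive cells were also more deeply sequenced. Cells with Ly6a had medians of 17364.5 UMIs in DBZ and 18109 in DMSO, against 10646 and 10601 for cells without. For Ly6d the medians were 12953 against 10379.5 in DBZ and 16140 against 10941 in DMSO, and for Ly6g6c they were 13733 against 10563.5 and 14615.5 against 11027.5. The part of depth in these shares was not tested beyond the thinning above.

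Cells with a member carried epithelial markers, as did nearly all cells of both libraries. Epcam, an epithelial adhesion protein, was in 99.2% to 100% of the cells with a member in each library. It was in 99.0% of all DBZ and 99.8% of all DMSO cells. The summed level of 5 epithelial markers per 10000 UMIs was above 0 in every cell of both libraries. Of 6 immune markers, 2 were analysed here, Cd68 and Cd74. Of 4 endothelial markers, 1 was, Pecam1, which was in 0% to 5.41% of the cells with a member and in 3.38% and 3.10% of all DBZ and DMSO cells. The summed immune pair ranged from 0 to 29.7 per 10000 UMIs in DBZ cells and from 0 to 19.0 in DMSO cells. Cd74, the invariant chain of MHC class II molecules, was in 14.8% of all DBZ cells, 36.0% of those with Ly6d and 47.1% of those with Ly6g6c. In DMSO it was in 7.85% of all cells, 29.4% of those with Ly6d and 30.6% of those with Ly6g6c. Its part in the results on Ly6d and Ly6g6c was not tested.

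The cells were placed in 12 clusters built without any gene of the Ly6 and uPAR family, so a member's place among them was not set by its own values. A cluster took a class name only where 3 or more of its 10 leading genes marked that class, which named mitotic-like, enteroendocrine-like and Paneth-like cells. The others are called by number and leading genes. The libraries filled the clusters unequally. Cluster 7 (led by Nts, Cd74 and Clu) had 161 DBZ and 13 DMSO cells, and cluster 6 (Npy, Tmem255a) had 265 and 27. Cluster 3 (Pnliprp2, Dnase1) had 1 and 163, and cluster 8 (Pmp22, Gdf15) had 8 and 147. Cluster 5 (Sprr1a, Reg3g, Hmox1) had 31 and 110, and cluster 9 (Reg3b, Ceacam1, Anxa3) had 40 and 62. A cluster held mostly by 1 library may be that library rather than a cell type.

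Ly6a was concentrated in clusters 9 and 5, which together were 11.0% of all cells and held 86.3% of its UMIs. In cluster 9, 39 of 62 DMSO cells had Ly6a (62.9%, 49.7 to 74.8) at a mean of 2.70 per 10000 UMIs, and 20 of 40 DBZ cells did (50.0%, 33.8 to 66.2) at 1.63. Cluster 9 was also the deepest, with medians of 22083 and 24278.5 UMIs in DBZ and DMSO. In cluster 5 the order of the libraries was the other way. There 13 of 31 DBZ cells had Ly6a (41.9%, 24.5 to 60.9) at a mean of 3.71, against 19 of 110 DMSO cells (17.3%, 10.7 to 25.7) at 1.42. The intervals of these 2 shares overlap. The pooled log2 ratio of DBZ over DMSO was -0.70 (-0.97 to -0.43) in cluster 9 and 0.58 (0.32 to 0.85) in cluster 5. In the DMSO library the next share below cluster 5 was 11.8% in cluster 0 (Sfrp5, Amica1), whose interval of 7.52 to 17.3 overlapped that of cluster 5. Clusters 3 and 8 had Ly6a in 4 of 163 and 4 of 147 DMSO cells, each time as 1 UMI.

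The difference in Ly6a was also computed at equal cluster makeup. Clusters 5 and 9 were 17.8% of DMSO cells and 5.72% of DBZ cells. With the cluster levels weighted by the pooled cluster makeup of both libraries, the log2 difference of Ly6a was 0.23, of the opposite sign to the -0.98 over all cells. That weighting was chosen after seeing the data, and some clusters rest on 1 to 13 cells of a library. The positive sign rests largely on cluster 5, where 13 DBZ and 19 DMSO cells had Ly6a. Single DMSO cells held 99, 75 and 65 of its 349 UMIs there, and the pooled interval given above does not cover such differences between cells. Under it Ly6d was still higher in DBZ, at 1.66, and Ly6g6c was at 0.24.

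Ly6d was found in several clusters. Cluster 7 held 46.9% of its UMIs over both libraries, 50.5% in DBZ and 12.8% in DMSO. In DMSO cluster 5 held more of them, 53.1%. Ly6d was in 81 of the 161 DBZ cells of cluster 7 (50.3%, 42.3 to 58.3) at a mean of 5.80, against 2 of 13 DMSO cells at 2.19. In cluster 5 Ly6d was in 12 of 31 DBZ cells at a mean of 4.08 and in 18 of 110 DMSO cells at 0.733. A pair of these DBZ cells held 97 and 57 of the 205 UMIs. In cluster 6 it was in 65 of 265 DBZ cells (24.5%, 19.5 to 30.2) at 1.36. The mitotic-like cells, nearly equal in number in the libraries, had Ly6d in 32 of 97 cases in DBZ (33.0%, 23.8 to 43.3) and in 8 of 98 in DMSO (8.16%, 3.59 to 15.5). Their median depths were 18562 and 18103.5 UMIs, and the pooled log2 ratio was 2.65 (2.13 to 3.20). In the Paneth-like cells, 2 of 75 DBZ cells held 161 and 77 of the 264 Ly6d UMIs. No DMSO cell of cluster 3 had Ly6d, 0 of 163, which, at 3 counts of the total, allows a share of cells with a UMI of up to 1.84%.

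Most Ly6g6c UMIs of the DBZ library were in 1 cluster. Cluster 7 held 72.2% of its UMIs in DBZ, 41.1% in DMSO and 69.3% over both. It was in 59 of 161 DBZ cells of that cluster (36.6%, 29.2 to 44.6) at a mean of 1.67, and in 8 of 13 DMSO cells (61.5%, 31.6 to 86.1) at 2.00. The pooled log2 ratio within cluster 7 was 0.34, with an interval of -0.27 to 1.02 that spans 0. The next shares in DBZ were 13.4% in the mitotic-like cells, 12.9% in cluster 5, 12.5% in cluster 9 and 7.55% in cluster 6, with intervals that overlap each other. Clusters 6 and 7 together made up 34.3% of the cells in DBZ, with 83.3% of its Ly6g6c UMIs, and 4.13% in DMSO, with 41.1%.

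RNA free in the droplets can give single UMIs in cells that do not make a gene. The enteroendocrine-like cells were used as the comparison for it, at median depths of 8747.5 UMIs in DBZ and 7963 in DMSO, although they are not known to lack these genes. Ly6d was in 21 of 210 such DBZ cells (10.0%, 6.30 to 14.9), with at most 2 UMIs, and in 0 of 44 DMSO cells. Ly6a was in 2.86% of the DBZ and 6.82% of the DMSO cells, and Ly6g6c in 3.33% and 0%. Shares at or near these, such as Ly6d in 13.7% of cluster 1 (led by Cyp2c55) and 4.73% of cluster 4 (Hes6, Arl14) in DBZ, were not read as expression. In cluster 4, however, 3 of the 7 DBZ cells with Ly6d had 5 or more UMIs, above the most in the comparison cells. In DBZ the shares of Ly6a in clusters 5 and 9 lay above those of the enteroendocrine-like cells, with intervals that do not overlap. The same held in DBZ for Ly6d in clusters 5, 6 and 7 and the mitotic-like cells, and for Ly6g6c in cluster 7 and the mitotic-like cells. After the thinning above, Ly6g6c was in 5.15% (1.69 to 11.6) of mitotic-like and 1.43% (0.296 to 4.12) of enteroendocrine-like DBZ cells. These intervals overlap, so that separation was not kept. The other DBZ cases named here kept separate intervals after thinning. In DMSO the unthinned intervals lay above those of the enteroendocrine-like cells for Ly6a in cluster 9, Ly6d in cluster 5 and Ly6g6c in cluster 7. Ly6d was in 16.4% (10.0 to 24.6) of cluster 5 and Ly6g6c in 61.5% (31.6 to 86.1) of cluster 7. In the enteroendocrine-like DMSO cells each was at 0% (0 to 8.04). After thinning, the interval of Ly6d in cluster 5, 6.45 to 19.4, overlapped that of the enteroendocrine-like cells, 0 to 8.04. For Ly6a in cluster 5 and Ly6d in cluster 7 the unthinned intervals already overlapped those of the enteroendocrine-like cells.

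**Figure D2:**
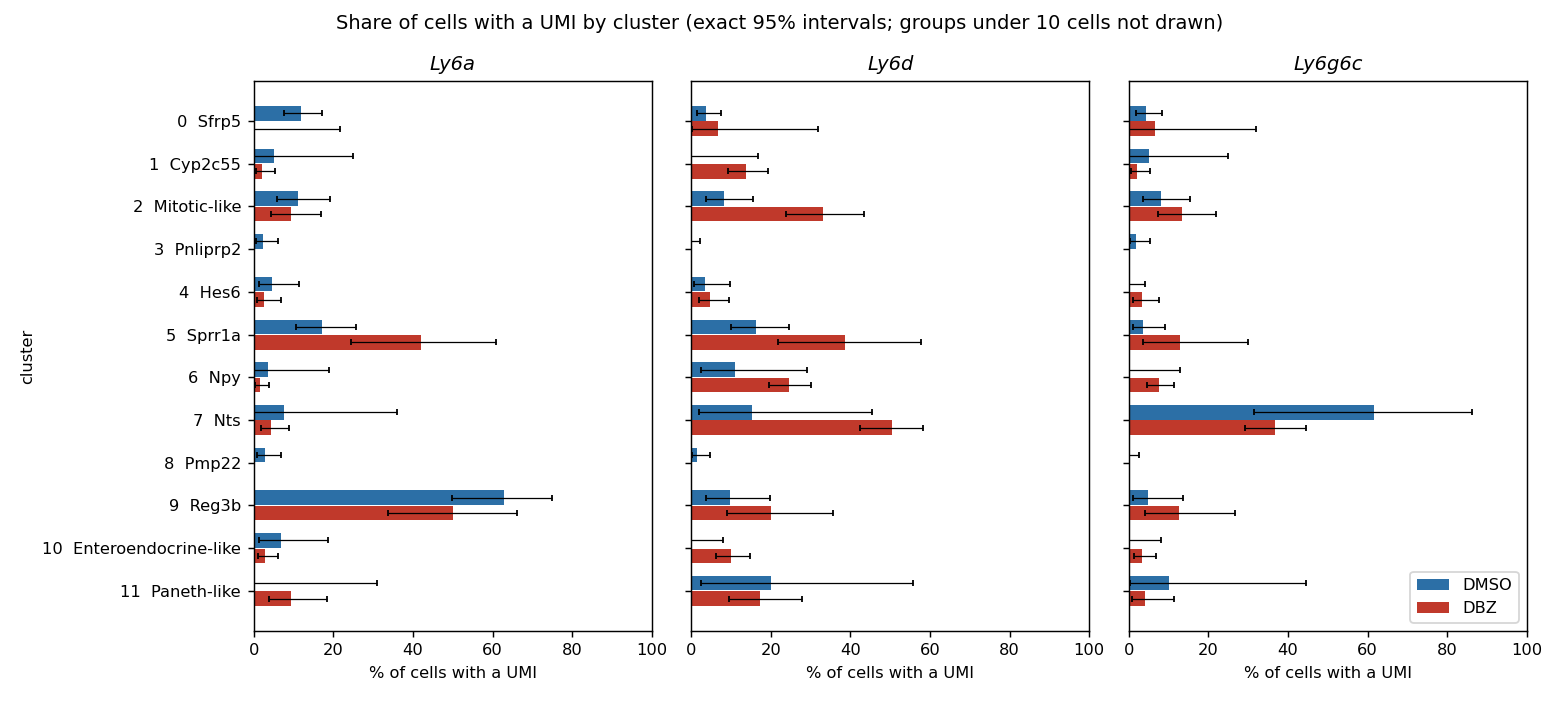
Percent of cells with at least 1 UMI of each member in each cluster, by library, with exact 95% intervals; groups under 10 cells are not drawn. Ly6a peaks in clusters 9 and 5, Ly6d in clusters 7 and 5, and Ly6g6c in cluster 7.

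Each pair of members occurred together in single cells, at or above the number that the product of their shares gives over a whole library. Ly6d and Ly6g6c were together in 54 DBZ cells where 26.0 would be expected, a ratio of 2.07 (1.57 to 2.69). In DMSO they were together in 8 cells against 1.90, a ratio of 4.22 (1.82 to 8.28). Ly6a and Ly6d were together in 25 DBZ cells against 15.9 (ratio 1.57, 1.02 to 2.31) and in 16 DMSO cells against 5.74 (2.79, 1.60 to 4.50). Ly6a and Ly6g6c were together in 10 DBZ cells against 7.22 (1.39, 0.666 to 2.54) and in 7 DMSO cells against 4.05 (1.73, 0.695 to 3.54). For this last pair the interval holds 1 in both libraries, and 1 or both members were at a single UMI in 7 of the 10 DBZ and 7 of the 7 DMSO cells. With 2 UMIs of each required, 0 DMSO cells held it. Any member was present in 30.5% of the cells in DBZ and 17.3% in DMSO. Of these, 302 and 140 cells had 1 member, 71 and 25 had 2, and 6 and 2 had all 3.

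The share of cells with 1 member was also taken in cells with and without another. In DBZ, Ly6d was in 44.6% (35.6 to 53.9) of cells with Ly6g6c and in 19.0% (16.8 to 21.4) of cells without. It was also in 33.8% (23.2 to 45.7) of DBZ cells with Ly6a and in 20.7% (18.4 to 23.2) of those without. In DMSO, Ly6a was in 31.4% (19.1 to 45.9) of cells with Ly6d and in 10.1% (8.26 to 12.3) of cells without. By the level of Ly6g6c, the share of DBZ cells with Ly6d was 19.0% at 0 Ly6g6c UMIs, 29.5% at 1, 55.6% at 2 to 4 and 66.7% at 5 or more, over 1120, 61, 36 and 24 cells. The share with Ly6a in the same groups was 5.71%, 8.20%, 8.33% and 8.33%. By the level of Ly6a, the share of DMSO cells with Ly6d was 4.07% at 0 UMIs, 2.13% at 1, 17.2% at 2 to 4 and 30.3% at 5 or more, over 859, 47, 29 and 33 cells. Cells with more Ly6a were also deeper, with medians from 10601 UMIs at 0 to 26530 at 5 or more.

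The ratios were recomputed within depth bins and within clusters. Of the cells with both Ly6a and Ly6d, 22 of 25 in DBZ and 14 of 16 in DMSO lay above their library's median depth. With the expectation summed over 10 bins of depth, a choice made after seeing the data, the Ly6d and Ly6g6c ratios were 1.80 (1.36 to 2.34) in DBZ and 3.31 (1.43 to 6.50) in DMSO. The Ly6a and Ly6d ratios were then 1.24 (0.803 to 1.82) and 1.71 (0.979 to 2.76), with intervals that hold 1. The Ly6a and Ly6g6c ratios were 0.995 and 1.12. With the expectation summed over clusters, the Ly6d and Ly6g6c ratios were 1.24 (0.937 to 1.61) and 2.40 (1.04 to 4.72), and 32 of the 54 DBZ cells with both lay in cluster 7, where 29.7 would be expected. The Ly6a and Ly6d ratios within clusters were 1.31 (0.852 to 1.93) in DBZ and 1.77 (1.01 to 2.85) in DMSO. Droplets holding 2 cells were not called here, and their part in these pairs was not tested. Without the 5% of cells with the most UMIs the Ly6d and Ly6g6c ratios were 2.14 and 5.0, and those of Ly6a and Ly6d were 1.44 (0.824 to 2.32) and 2.27 (0.982 to 4.46).

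**Figure D3:**
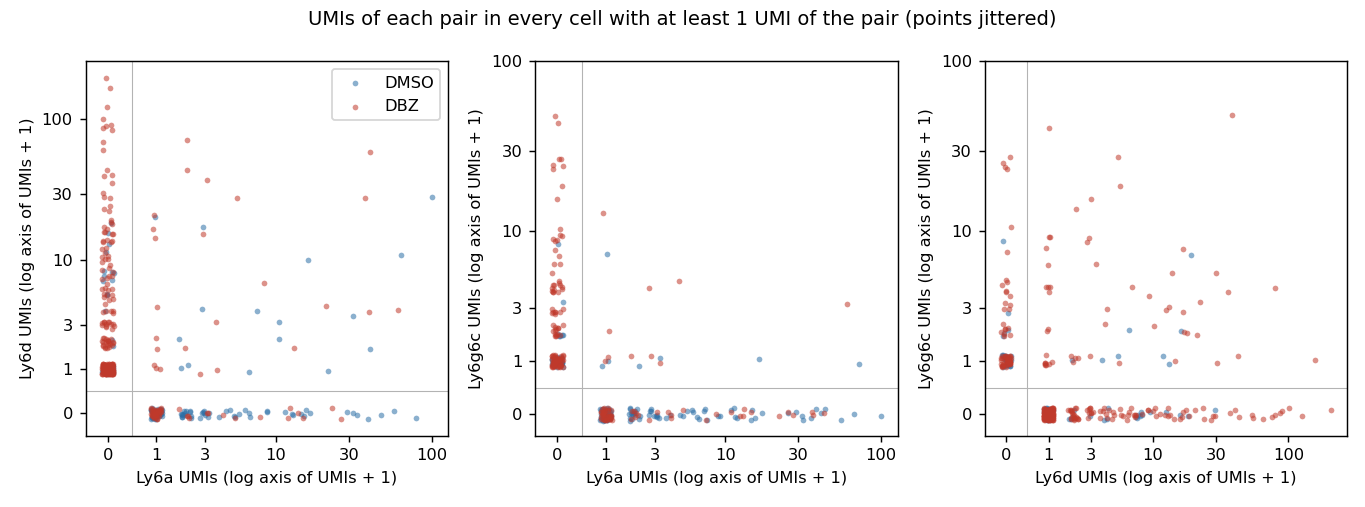
UMIs of each pair of members in every cell with at least 1 UMI of the pair, on log axes of UMIs + 1, coloured by library and jittered. Most points lie along the axes, with 1 member at 0, and a smaller number lie inside, where both were counted.

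At high levels most cells were high in 1 member. Such cells were few, so independent members would also leave most of them high in 1. Of the 103 DBZ cells with 5 or more UMIs of any member, 94 were high in 1, 8 in 2 and 1 in all 3. Of the 48 such DMSO cells, 44 were high in 1 and 4 in 2. Among cells high in Ly6a, 12 of 16 in DBZ and 30 of 33 in DMSO were high in no other member. Among cells high in Ly6d these counts were 64 of 73 and 13 of 17, and for Ly6g6c 18 of 24 and 1 of 2. Both Ly6d and Ly6g6c reached 5 UMIs in 6 DBZ cells, where 1.41 would be expected (ratio 4.25, 1.56 to 9.22). In DMSO it was 1 cell, against 0.0351. For Ly6a and Ly6g6c it was 1 DBZ cell against 0.309 and 0 DMSO cells against 0.0682. Both Ly6a and Ly6d reached 5 UMIs in 4 DBZ cells, where 0.941 would be expected, and in 3 DMSO cells, against 0.579. Of these 7 cells, those in DMSO and 3 of those in DBZ lay in cluster 5. The cell with the most Ly6a UMIs in the series, 99 in DMSO, also had 30 Ly6d UMIs, the most of any DMSO cell. By contrast, the cell with the most Ly6d UMIs, 194 in DBZ, had 0 of the other members. The 1 cell high in all 3 was a DBZ cell of cluster 5 with 5 Ly6a, 29 Ly6d and 5 Ly6g6c UMIs among 15526.

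**Figure D4:**
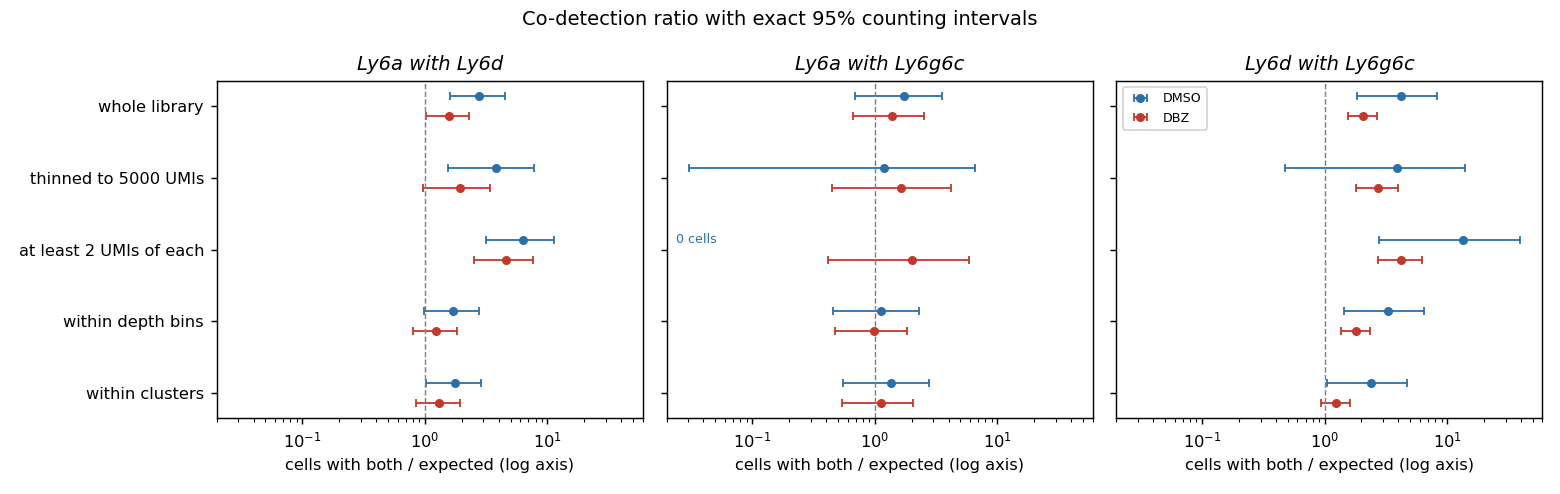
Number of cells with both members of a pair over the number expected, on a log axis, for 5 ways of counting, by library, with exact 95% counting intervals and a dashed line at 1. The Ly6d and Ly6g6c ratios lie between 1.24 and 13.4, the last from 3 DMSO cells. Their intervals hold 1 within clusters in DBZ and after thinning in DMSO. The Ly6a and Ly6g6c ratios have intervals that hold 1 in each case drawn, and at 2 UMIs that pair has 0 cells in DMSO.

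The genes whose values were most like each member's came from a ranking of the deposited log values over the cells of 1 library, 1241 in DBZ and 968 in DMSO. These Pearson correlations describe cells that share a library and differ in depth, and the highest among genes in at least 10% of cells was 0.434. For Ly6a the highest in DBZ were F3 (tissue factor, which starts coagulation, r = 0.420), Edn1 (endothelin, 0.395), Ahnak (0.377), S100a14 (0.368) and Krt19 (a simple epithelial keratin, 0.361). In DMSO they were Lgals4 (a galectin of the gut epithelium, 0.428), Ahnak (0.402), S100a14 (0.374), Tagln2 (0.372) and Foxq1 (0.364). Ahnak and S100a14 were thus among the 5 highest in both libraries. The lowest for Ly6a were Ifitm2 (-0.276), Prox1 (-0.253) and Nkd1 (-0.225) in DBZ, and Ifitm1 (-0.330), Fth1 (-0.302) and Sypl (-0.294) in DMSO.

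For Ly6d the highest in DBZ were Ly6e, another family member (0.434), Clu (clusterin, a secreted chaperone, 0.405), Hacd2 (0.369), Cd74 (0.354) and Ecscr (0.341). In DMSO they included S100a14 (0.384), Akr1b8 (0.303), Alcam (0.295) and Ly6e (0.266). For Ly6g6c they included Gstm5 (0.375), Hacd2 (0.360), Clu (0.356) and Cd74 (0.351) in DBZ, and Clu (0.328), Plagl1 (0.213), Wnt6 (0.206) and Ly6e (0.205) in DMSO. Hacd2, Clu and Cd74 were on both the Ly6d and the Ly6g6c lists in DBZ, and Lgals2 was among the 3 lowest of both members in both libraries. Between the members themselves, r was 0.199 in DBZ and 0.255 in DMSO for Ly6d with Ly6g6c, 0.113 and 0.234 for Ly6a with Ly6d, and -0.005 and 0.017 for Ly6a with Ly6g6c.

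Among the other genes of the Ly6 and uPAR family, 14 of 47 listed were in the table, and 10 were above 0 in both libraries and in at least 1% of cells of either. Of these 10, 6 were higher and 4 lower in DBZ, with a median log2 difference of 0.07. That was near all genes, of which 62.9% were higher, with a median of 0.09. At least 2-fold higher were 1.76% of all genes, and 1.07% were at least 2-fold lower. Among the 10, Ly6e alone was at least 2-fold higher, 4.33 per 10000 UMIs in DBZ and 2.01 in DMSO (log2 1.09). At least 2-fold lower were Lypd8, a GPI-anchored protein of the colon surface that keeps bacteria off the epithelium (0.438 and 1.54, log2 -1.70), and Plaur, the urokinase receptor (0.231 and 0.529, log2 -1.04). Lypd6b and Lypd6 differed by 0.67 and 0.56, and Cd59b, Pate2 and Psca by 0.01, -0.02 and -0.06. Ly6c1, Ly6g and Lypd3 were listed at 0 in DBZ, and Cd59a in DMSO. In all, 282 genes are at 0 in every DBZ cell and 723 in every DMSO cell, while 3 and 22 genes are above 0 in 1 to 5 cells. A listed 0 therefore cannot be told apart from a gene removed by a filter before deposit. Ly6e was highest where Ly6d and Ly6g6c were, at 11.0 in DBZ and 9.75 in DMSO cells of cluster 7. Plaur was higher in DBZ cells with Ly6a, where it averaged 1.02 against 0.181 in cells without, a log2 difference of 2.21. In DMSO cells the same difference was 0.69.

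The genes beside the members in gene order differed among themselves. Ly6c1 was in 32 DMSO cells, of which 23 also had Ly6a where 3.60 would be expected. Its r with Ly6a was 0.591 there. Lynx1, which binds nicotinic acetylcholine receptors and lies next to Ly6d, was in 16.5% of DBZ cells with Ly6d and 2.77% of those without, and its log2 difference between libraries was 0.74. Ly6g6d, next to Ly6g6c, was in 3.71% of DBZ and 2.48% of DMSO cells, and its log2 difference was 0.13. The other neighbours of Ly6g6c in the table, Clic1, Ddah2 and Abhd16a, differed by -0.25, 0.08 and 0.43.

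Genes of a fetal-like and regenerative list, which mark the repairing gut epithelium, were higher in cells with Ly6a. Between the libraries the same list was split, with 10 of 21 genes higher and 11 lower in DBZ and a median log2 difference of -0.00. Of all genes, 62.9% were higher in DBZ. Clu (2.29) and Reg3b (0.75) were the list's 2 highest, and Cyr61 (-1.93) and Ankrd1 (-1.75), targets of the YAP coactivator, its 2 lowest. Of 23 such genes in DBZ, 21 were higher in the 74 cells with Ly6a than in the 1167 without, 13 of them at least 2-fold, beside 2.73% of all genes. The list's median log2 difference was 1.37, and that of all genes -0.03, with 6012 of 12623 genes higher. In DMSO 18 of 21 were higher, 8 at least 2-fold, beside 1.47% of all genes, with a median of 0.71. Of all genes, 5980 of 12296 were higher there. Anxa1, an annexin, averaged 2.43 per 10000 UMIs in DBZ cells with Ly6a against 0.0864 in the rest, and 1.19 against 0.107 in DMSO. Anxa3 averaged 1.42 against 0.0288 in DBZ and 1.23 against 0.0459 in DMSO. Krt19 averaged 9.54 against 1.85 and 9.93 against 3.55. Reg3b, an antimicrobial lectin, averaged 6.84 against 1.15 and 3.69 against 0.509. Il33, an alarmin cytokine on the same list, was lower in cells with Ly6a, 1.13 against 2.04 in DBZ and 0.556 against 1.26 in DMSO.

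Clusters 5 and 9 have some of these genes among their leading genes, so the cells were also compared within each. In cluster 9, 20 of 21 genes of the list were higher in the 39 DMSO cells with Ly6a than in the 23 without, 14 of them at least 2-fold, beside 3.8% of all genes. In the DBZ cells of cluster 9, 18 of 23 were higher and 10 at least 2-fold, beside 8.97% of all genes. In cluster 5 the counts were 16 of 23 and 13 in DBZ, beside 12% of all genes, and 15 of 21 and 6 in DMSO, beside 4.25%. Of all genes, 6424 of 12296 were higher in cluster 9 in DMSO and 6537 of 12623 in DBZ. In cluster 5 the numbers of all genes higher were 5268 of 12296 in DMSO and 5904 of 12623 in DBZ. The medians of the list were 1.44 and 0.93 in cluster 9, in DMSO and DBZ, and 0.27 and 1.05 in cluster 5. These groups hold 13 to 91 cells.

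Cells with Ly6d or Ly6g6c were compared with the rest over the same list. In DBZ, 17 of 23 genes were higher in cells with Ly6d, 5 at least 2-fold, beside 0.824% of all genes, with a median of 0.56. In DMSO 18 of 21 were higher, 10 at least 2-fold, beside 1.97%, with a median of 0.96. For Ly6g6c the counts were 13 of 23 and 6 in DBZ, beside 0.935%, and 17 of 21 and 8 in DMSO, beside 1.94%. Of all genes, 7550 of 12623 were higher in DBZ cells with Ly6d, and 5716 of 12296 in DMSO. With Ly6g6c these numbers were 7343 of 12623 and 6326 of 12296, so its 13 of 23 in DBZ was near the share of all genes. Clu averaged 13.4 in DBZ cells with Ly6g6c and 3.43 in those without, 10.2 against 2.82 for Ly6d, and 6.04 against 4.30 for Ly6a. S100a6, a calcium-binding protein, averaged 45.5 against 21.2 for Ly6g6c, 39.8 against 19.1 for Ly6d and 27.4 against 23.3 for Ly6a in DBZ. Reg3b and Reg3g, by contrast, were lower in DBZ cells with Ly6d, at 0.729 against 1.70 and 0.431 against 1.08, and in those with Ly6g6c, at 0.524 against 1.60 and 0.224 against 1.02. In DMSO Reg3b was higher in cells with Ly6g6c, 4.13 against 0.741, over 36 cells.

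The cells were also compared within single clusters. Among the DBZ cells of cluster 7, 18 of 23 genes were higher in the 81 cells with Ly6d than in the 80 without, 5 at least 2-fold, beside 2.11% of all genes. For Ly6g6c, 12 of 23 were higher and 0 at least 2-fold, beside 1.32%. Of all 12623 genes, 6827 were higher with Ly6d and 6670 with Ly6g6c, so the 12 of 23 was near the share of all genes. Among the mitotic-like DBZ cells, 17 of 23 were higher in the 32 cells with Ly6d, and 12 at least 2-fold, beside 5.78% of all genes. There 7188 of all 12623 genes were higher. In the 65 DBZ cells of cluster 6 with Ly6d, 13 of 23 were higher and 1 at least 2-fold, with a median of 0.06. In cluster 5 and the Paneth-like cells the DBZ count was also 13, and in cluster 1 and the enteroendocrine-like cells 9. All genes higher in these groups, in that order, numbered 6296, 5431, 5456, 5571 and 5586. In DMSO cells of cluster 5, 16 of 21 were higher with Ly6d, beside 5269 of all 12296 genes.

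**Figure D5:**
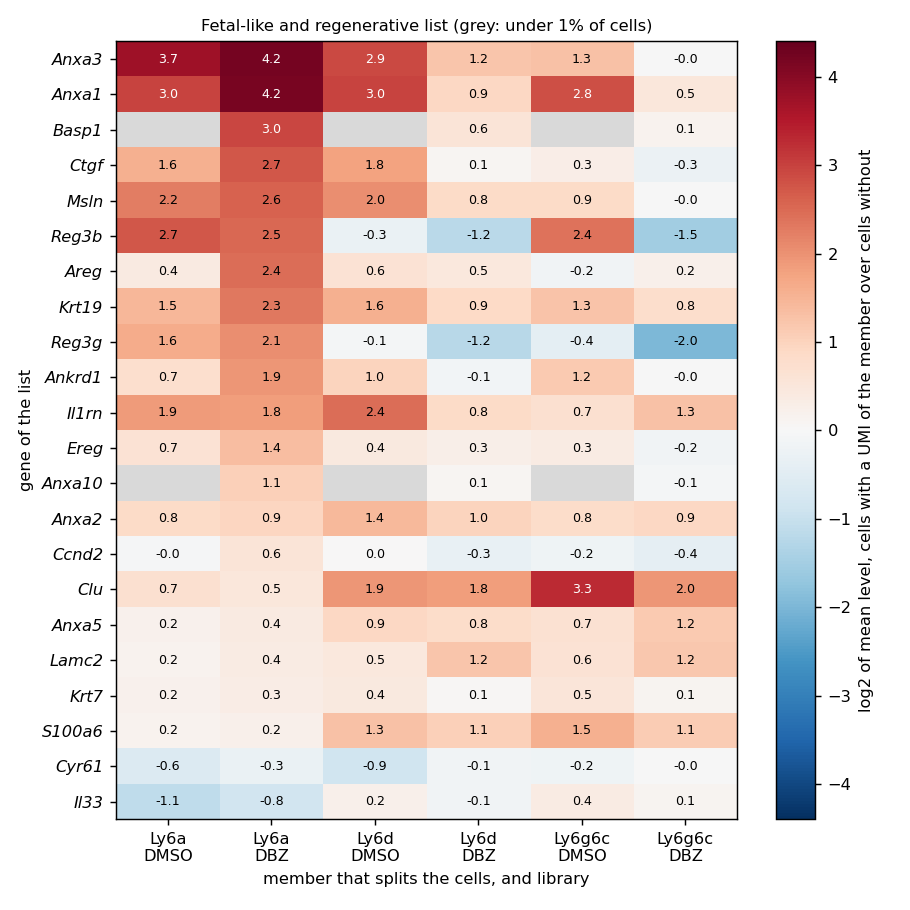
Log2 of the mean level in cells with a UMI of a member over cells without, with 0.05 added to each mean, for genes of the fetal-like and regenerative list, by member and library; grey marks genes under 1% of cells. The Ly6a columns are highest for Anxa3 and Anxa1, and the Ly6d and Ly6g6c columns show higher Clu and S100a6 in both libraries.

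Interferon response genes, of interest because interferon induces Ly6a, were compared in the same way. In DBZ 19 of 26 were higher in cells with Ly6a, 5 at least 2-fold, beside 2.73% of all genes, with a median of 0.39. In DMSO 15 of 25 were higher, 0 at least 2-fold, beside 1.47%, with a median of 0.10. Bst2 (tetherin), which interferon induces, averaged 0.449 in DBZ cells with Ly6a and 0.183 in those without, while Ifitm1 averaged 12.4 against 26.9. For Ly6d the counts were 17 of 26 and 0 in DBZ, beside 0.824%, and 17 of 25 and 4 in DMSO, beside 1.97%. For Ly6g6c they were 19 of 26 and 2 in DBZ, beside 0.935%, and 19 of 25 and 5 in DMSO, beside 1.94%. The numbers of all genes higher are those given with the fetal-like and regenerative list. Against them, 17 of 26 for Ly6d in DBZ was near the share of all genes. Between the libraries 15 of 26 were higher in DBZ and 11 lower, with a median of 0.20. Of all genes, 62.9% were higher in DBZ, with a median of 0.09. The extremes of the interferon list were Ifitm2 (0.55) and Ifi27 (0.43), and Cxcl10 (-2.13), an interferon-induced chemokine, and Ifi27l2b (-1.36). Of 13 squamous epithelium genes, 11 were higher in DBZ cells with Ly6a, 3 at least 2-fold, and 9 in DMSO cells with Ly6a, 4 at least 2-fold. In cells with Ly6d, 8 were higher in DBZ, 1 at least 2-fold, and 11 in DMSO, 3 at least 2-fold. In cells with Ly6g6c, 8 were higher and 1 at least 2-fold in both libraries. The shares of all genes at least 2-fold higher are those given beside the interferon counts. For both Ly6d and Ly6g6c, 8 of 13 in DBZ was near the share of all genes higher. Sprr1a, a cornified envelope protein, averaged 3.00 against 0.246 in DBZ cells with Ly6a and 3.52 against 0.397 in DMSO cells with Ly6d, and it is the leading gene of cluster 5. Between the libraries 5 of 12 squamous genes were higher in DBZ and 7 lower, with a median of -0.31, from Pkp1 (plakophilin, 0.47) and Evpl (envoplakin, 0.26) to Krt4 (-0.55) and Sfn (-1.21). GPI anchor synthesis genes, which build the anchor of these proteins, had medians between -0.07 and 0.08 for every member and library, and 0 of 27 reached a 2-fold difference in any. Between the libraries, 18 of these 27 were higher in DBZ and 9 lower, with a median of 0.08 and 0 past 2-fold. That was near the 62.9% and the median of 0.09 of all genes. The GPI differences ran from Pigq (0.48) and Pgap1 (0.43) to Pigc (-0.21) and Pigf (-0.24).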

How the data were processed

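Single cells of both libraries were captured in droplets with UMI barcodes, per the labels' protocols. Per the submitters' processing notes, the tools were Cell Ranger 2.1.1 and Seurat, and the mouse genome build was mm10. Which annotation and which cell and gene filters were applied is not given in the sources used here. Values in the table that the authors deposited are natural log values. In each cell exp(value) - 1 summed to 10000, so each value above 0 was turned back into whole UMIs. Columns beginning with CTRL and GSI were read as DMSO and DBZ from the meaning of the names. A gene at 0 in every cell of a library is called listed at 0 and gets no fold.

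A difference is log2 of (mean in DBZ + 0.05) over (mean in DMSO + 0.05), both per 10000 UMIs. Pooled ratios and shares have exact 95% intervals (conditional binomial and Clopper-Pearson). Clusters were made with scanpy 1.11.5 and igraph 0.11.9 from 1988 variable genes, using 30 principal components, 15 nearest neighbours, a Leiden resolution of 1 and the random seed 0. A cluster's leading genes have the highest fold over the other cells, if 25% or more of its cells show them. No count model was run and no doublets were called. The steps were tested on simulated data. Members, lists, markers and comparisons were chosen with earlier results of these data known. The rule for named genes took the 3 members, the family list, and for each member and library the 5 highest and 3 lowest correlations among genes in 10% or more of the cells. Unnamed gene models, Xist and genes of mitochondria and ribosomes were left out there. Some genes that the rule names are not reported here. Of the other lists, the rule took the 2 highest and 2 lowest differences between libraries among genes in 10% or more of the cells. List genes named for cells with a member were picked after their values were seen. Sequences are from GENCODE vM21.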

Additional observations from a re-analysis of the deposited data

How the results depend on the processing

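With 1 library per treatment nothing here has a replicate check, and intervals cover counting error only. No paired analysis was possible because each treatment has 1 library, and for the same reason no library could be left out. Of 79 recomputed values, 36 moved by less than counting error or, for counts of genes, by less than 1.5 times. The weighting by pooled cluster makeup, the minimum of 5 UMIs, the depth bins and the removal of barcodes in both libraries were chosen after seeing the data. Changes of sign or side came in 3 cases: Ly6a at 0.23 under the pooled makeup, and the Ly6a and Ly6g6c co-detection ratio at 0.995 in DBZ over depth bins and at 0 in DMSO with 2 UMIs required. The cause was not tested.

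The pooled UMI ratios were -1.37 for Ly6a, 2.94 for Ly6d and 2.96 for Ly6g6c on the log2 scale. With a pseudocount of 0.01 the differences were 2.92 for Ly6d and 2.40 for Ly6g6c, and 521 genes were past 2-fold higher and 261 lower. Under the pooled makeup they were 1.66 and 0.24. Shares of cells are lower by construction when cells are thinned to 5000 UMIs or 2 or 5 UMIs are required. In that order the percentages were 3.38, 2.50 and 1.29 for Ly6a in DBZ, and 5.58, 6.40 and 3.41 in DMSO. For Ly6d they were 13.6, 9.83 and 5.88 in DBZ, and 3.41, 2.79 and 1.76 in DMSO. For Ly6g6c they were 5.80, 4.83 and 1.93 in DBZ, and 1.55, 0.826 and 0.207 in DMSO. Co-detection ratios with 2 UMIs required were 4.59 in DBZ and 6.36 in DMSO for Ly6a with Ly6d, and 4.24 and 13.4 for Ly6d with Ly6g6c. The last pair in DBZ was at 2.75 after thinning and 1.24 within clusters. The percentage of UMIs in the leading cluster at Leiden resolution 0.5 was 39.2 for Ly6a, 76.3 for Ly6d and 80.2 for Ly6g6c. At resolution 2 it was 36.3 for Ly6d and 48.5 for Ly6g6c, and with the family genes kept it was 40.3 for Ly6a and 51.9 for Ly6d. The leading cluster was not the same in each setting. For Ly6a it was led by Sprr1a at resolution 0.5 and with the family kept, and by Reg3b otherwise. At resolution 2 Ly6d and Ly6g6c had different leading clusters. That of Ly6d had 128 cells and was led by Npy and Tmem255a. That of Ly6g6c had 133 cells and was led by Nts.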
